A study of Drosophila melanogaster with 78 samples.

Results

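Polysome-enriched RNA was set against total RNA in the fat body of wDah control flies, with 3 libraries of each. All libraries labelled wDah, fat body and day 10 were used, so that 6 of the 78 libraries of the series and all 206 circRNAs of the deposited polysome tables, from 167 host genes, entered the comparison. The flies were females of the white Dahomey stock, labelled as wildtype, and were 10 days old. The fat body was dissected by hand and, per the labels, gut and ovaries had been taken out of it. The methods define this sample as the abdomen without these organs, so it can hold other abdominal tissue. Polysomes were collected from sucrose gradients as the fraction heavier than monosomes. Libraries of both fractions were depleted of ribosomal RNA. The wider study compared this stock with insulin mutants (dilp2-3,5) in several tissues and ages, and looked in this experiment for circRNAs on polysomes, that of sfl foremost. The sources do not say that polysomes and total RNA came from the same flies, and the polysome samples went through a gradient that the total RNA samples did not, so fraction and preparation cannot be told apart.

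A circRNA forms when the spliceosome joins the end of an exon back to the start of the same or an earlier exon, which leaves a closed ring without cap or poly(A) tail. It is recognised in sequencing by reads across that backsplice junction. Capped linear mRNAs are loaded with several ribosomes and sink deep into a sucrose gradient as polysomes. A circRNA can be read by ribosomes only by entry away from a cap, and RNA can also reach the heavy fractions in large complexes that hold no ribosome.

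A circular read is identified by the bases on both sides of the junction, and 10 junctions are shown because the results turn on them or because they show 2 kinds of junction. Each line gives the last 15 bases of the circle in lower case and, joined to them, its first 15 bases in capitals, read 5′ to 3′ on the strand given, from the BDGP6 (Release 6) genome. The CaMKI circles end at the same base and differ in where they start. In sfl, the frame of the host's start codon meets the stop codon TAA at once in the capitals, ending 4 bases past the junction. In the last 3 lines the ring is not flanked by splice site bases on its own strand.
sfl, chr3L:6523030-6524096, plus strand: gggcgtgtttaatggATAAGAGGACGACCC
CaMKI, long circle, chr4:449924-450509, plus strand: catcgtgatcttaagGTTCAGTGCAAATCA
CaMKI, short circle, chr4:450242-450509, plus strand: catcgtgatcttaagGTTAACTCATCCAAA
Dbp80, chr3L:27331994-27332346, plus strand: cattcgaatacacaaGTTCTGTGTTTATCC
Pdk1, chr3L:135458-136335, plus strand: gccgcgagtatgcaaATCAACGGTACACAG
Gug, chr3L:8469410-8469691, plus strand: cacatggtgcgtatgGGAACTGGAGGAGAT
pum, chr3R:9217987-9218763, minus strand: tgacaagggcttcaaATTACCACATCCACT
Yp1, chrX:10053923-10054102, plus strand: ctggagaacatgaacCCCATGAGAGTGCTG
lcs, chrX:21396856-21396988, minus strand: atcatccacagcatcCTCCATCCAACCAAA
Rfabg, chr4:1070749-1070923, plus strand: aattccgaaatccacTACCCCAACCTTTTG

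The authors' tables give whole counts of 2 kinds for each circRNA and library. Circular reads cross the backsplice junction, and linear reads were counted at the ends of the circle. The methods speak of linear spliced reads of the host gene. Linear counts were also high at ends off exon boundaries, as for EF2 with both ends labelled as intron (279 to 1793). Whether all linear reads were spliced was not tested. The polysome libraries held 1019, 1287 and 1080 circular reads and the total RNA libraries 2680, 3614 and 2930. Linear reads numbered 64309, 71158 and 82282 in polysomes and 84402, 82687 and 84691 in total RNA. Most circRNAs rested on few reads, which sets the precision of every value here. All replicates differed from each other by more than counting noise, and none was counted as a duplicate. The labels do not say how the flies of the replicates were separated, although the methods call them biological replicates.

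Relative to linear reads at the ends of the same circles, circular reads were fewer in polysomes than in total RNA. Per 100 linear reads, the polysome libraries had 1.58, 1.81 and 1.31 circular reads. The total RNA libraries had 3.18, 4.37 and 3.46. All polysome values lay below all values of total RNA. The means were 1.57 ± 0.248 (SD, n = 3) and 3.67 ± 0.624 (SD, n = 3), so that the value of total RNA was 2.34-fold that of polysomes. The exact permutation test (two-sided) gave p = 0.1, which is the smallest value that 3 against 3 libraries can give. Few linear counts carried much of the linear sum: 19 counts of 5 circRNAs exceeded 7000, with 7819 as the highest. Without those circRNAs, the means were 3.05 ± 0.757 and 5.89 ± 1.15 (SD, n = 3 each), a 1.93-fold difference, with the groups apart again (exact permutation p = 0.1). With only circRNAs whose ends lay on annotated exon boundaries, the means were 4.58 ± 1.36 and 10.03 ± 2.22 (SD, n = 3 each). That was a 2.19-fold difference (exact permutation p = 0.1), under a restriction chosen after seeing the data. With each circRNA weighted equally, as the median over circRNAs of circular per 100 linear reads, the libraries overlapped: 13.04, 14.3 and 7.14 in polysomes and 13.3, 25.8 and 16.7 in total RNA (exact permutation p = 0.2). The libraries came from bulk tissue, so the cell types behind this difference cannot be told.

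**Figure D1:**
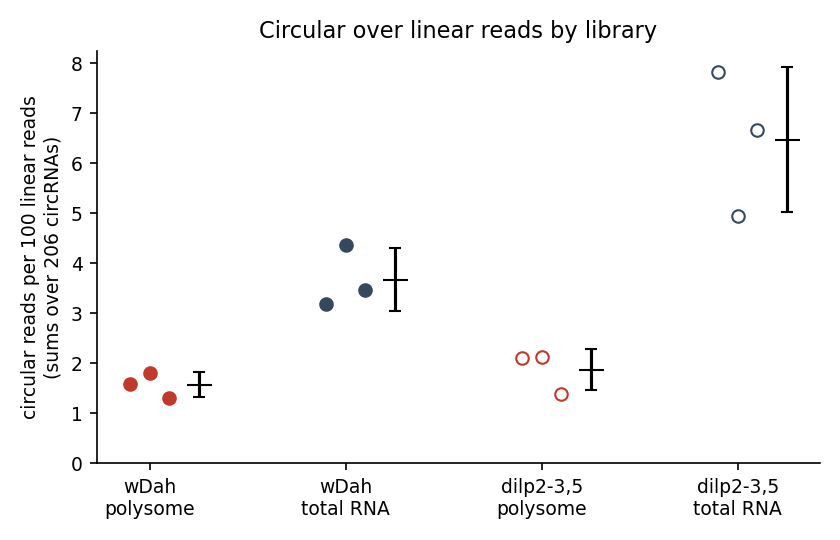
Circular reads per 100 linear reads in each library, summed over the 206 circRNAs, for polysome-enriched and total RNA of wDah (filled circles) and dilp2-3,5 fat bodies (open circles); the cross and bar give the mean and SD of 3 libraries. The wDah polysome libraries lie between 1.31 and 1.81 and the wDah total RNA libraries between 3.18 and 4.37.

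The plot of circular over linear reads by library also shows the mutant. In dilp2-3,5 fat bodies the means were 1.87 ± 0.417 and 6.47 ± 1.45 (SD, n = 3 each) per 100 linear reads, a 3.46-fold difference, and whether it differs from that of wDah was not tested at this level.

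Most of the 206 circRNAs of the deposited tables were read in each polysome library. All of them had at least 5 circular reads in 3 or more of the 12 libraries of both genotypes. Polysome libraries are among these 12, so that detection in polysomes goes in part with this selection. In single polysome libraries 176, 185 and 176 of the 206 circRNAs had a read, and in total RNA 199, 204 and 201. At an equal depth of 1019 circular reads, 176, 176 and 174 circRNAs would be expected in polysomes and 178, 179 and 179 in total RNA, so that most of this gap goes with depth. A read was present in all 3 polysome libraries for 138 circRNAs and in all 3 libraries of total RNA for 195. No polysome read was found for 2 circRNAs. The mean circular reads per 1000 circular reads of a circRNA in polysomes and in total RNA had a Spearman correlation of 0.719 across the 206 circRNAs, which share these libraries. The 8 most abundant circRNAs in polysomes took 23.7%, 24.5% and 24.7% of the circular reads there and 21.2%, 24.3% and 21.3% in total RNA, and 4 of them were also among the 8 most abundant in total RNA.

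**Figure D2:**
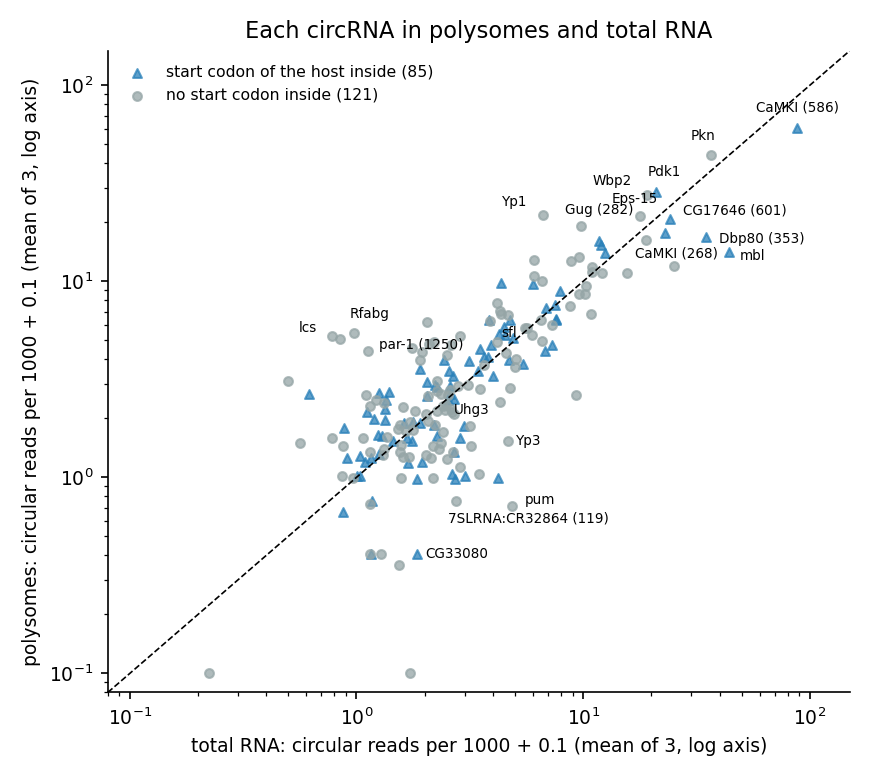
Mean circular reads per 1000 circular reads of the library (3 libraries each, 0.1 added, log axes) in total RNA on the x axis and in polysomes on the y axis, 1 point per circRNA; triangles hold the annotated start codon of their host and the dashed line marks equal shares. Most of the 206 points follow the line (Spearman correlation 0.719), with mbl and Dbp80 below it and Yp1, Rfabg and lcs above it; numbers in brackets give the genomic span in bases where a host has several circRNAs.

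Each circRNA was then tested for its part of the circular reads, by edgeR's quasi-likelihood test on circular reads with TMM factors. Of 204 circRNAs tested, 0 were higher in polysomes (0%) and 0 were lower (0%) at an adjusted p under 0.05. At an unadjusted p under 0.05 there were 23 (11.3%), of which 10 were higher (4.9%) and 13 lower (6.37%). DESeq2 called 1 circRNA, that of mbl, with 18 at an unadjusted p under 0.05, and a beta-binomial test called 0, with 26. The 3 polysome values lay all above the 3 values of total RNA in 16 of the 206 circRNAs (7.77%) and all below them in 18 (8.74%). These are parts of a whole: a circRNA with an equal part in both fractions still had fewer reads per linear read in polysomes. The median log2 change over the 204 circRNAs was -0.10, or 0.07 without TMM factors.

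Protein kinases hosted the 3 most abundant circRNAs of polysomes. The long circle of CaMKI, a calcium and calmodulin dependent kinase, ranked first in both fractions, with 59, 79 and 66 reads in polysomes and 219, 373 and 231 in total RNA. Its part was 57.9, 61.4 and 61.1 circular reads per 1000 in polysomes and 81.7, 103 and 78.8 in total RNA. The groups did not overlap, with polysomes lower (60.1 ± 1.94 against 87.9 ± 13.3 per 1000, SD, n = 3 each; log2 change -0.72 ± 0.21 (SE), edgeR adjusted p = 0.15). The short CaMKI circle, which shares its end and therefore its linear reads there, had 21, 20 and 18 reads in polysomes and 57, 81 and 72 in total RNA. Its parts were 17.6 ± 2.66 and 22.8 ± 1.68 per 1000 (SD, n = 3 each), also without overlap (log2 change -0.56 ± 0.24 (SE), edgeR adjusted p = 0.377).

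The kinases Pkn and Pdk1 stood close behind CaMKI in polysomes. Pkn, a protein kinase with its circle on the right arm of chromosome 2, had 39, 72 and 41 reads in polysomes and 94, 132 and 113 in total RNA. That gave 44.1 ± 10.3 and 36.7 ± 1.75 per 1000 (SD, n = 3 each), with overlapping groups and a log2 change of 0.10 ± 0.23 (SE), or -0.12 without polysome replicate 2. Pdk1 encodes the kinase that activates Akt downstream of the insulin receptor. Its circle, 754 bases in 2 exons with the start codon inside, had 24, 36 and 36 reads in polysomes and 62, 76 and 54 in total RNA. All 3 polysome parts were above those of total RNA (28.3 ± 4.90 against 20.9 ± 2.36 per 1000, SD, n = 3 each), and the log2 change was 0.28 ± 0.25 (SE, edgeR adjusted p = 0.758). Of the 15 circRNAs of 12 kinase genes, 1 had an unadjusted p under 0.05 with a higher part in polysomes and 2 with a lower part, next to 4.9% and 6.37% of all. Their median log2 change was -0.23, and that of all circRNAs tested -0.10. The 1 with a higher part was a circle of par-1, a kinase of cell polarity, with 9, 4 and 1 reads in polysomes and 2, 6 and 2 in total RNA.

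Of the other abundant circles, that of Wbp2 was higher in every polysome library and those of Eps-15 and CG17646 overlapped. Wbp2, a WW domain binding protein, had 28, 37 and 28 reads in polysomes and 40, 84 and 55 in total RNA, and its polysome parts were all higher (27.4 ± 1.41 against 19.0 ± 4.16 per 1000, SD, n = 3 each; log2 change 0.34 ± 0.26 (SE), edgeR adjusted p = 0.695). Eps-15, an adaptor of endocytosis, had 30, 26 and 16 reads against 51, 65 and 48, with overlap (log2 change 0.07, edgeR adjusted p = 0.992; -0.13 without polysome replicate 1). CG17646, a predicted ABC transporter, had 25, 26 and 19 reads against 50, 95 and 80, also with overlap (log2 change -0.41 ± 0.26 (SE), edgeR adjusted p = 0.636). For these circles a change of the size of the errors could not be seen at this depth.

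The circle of sfl, which encodes the N-deacetylase and N-sulfotransferase of heparan sulfate, was read at low levels. Its reads were 5, 2 and 8 in polysomes and 11, 8 and 15 in total RNA. Per 1000 circular reads these were 4.91, 1.55 and 7.41 in polysomes and 4.10, 2.21 and 5.12 in total RNA, so that the polysome values spanned those of total RNA. The means were 4.62 ± 2.94 and 3.81 ± 1.47 (SD, n = 3 each), and sfl ranked 65 in polysomes and 68 in total RNA. The log2 change was 0.09 ± 0.57 (SE, edgeR adjusted p = 0.992), and that of the circular to linear ratio was -0.77 ± 0.67 (SE, edgeR adjusted p = 0.65). Leaving out polysome replicate 3 turned the log2 change to -0.52, and leaving out total replicate 2 turned it to -0.16. The linear reads of sfl at the same positions were 21, 31 and 36 in polysomes and 49, 30 and 38 in total RNA.

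The 3 circles with a lower part in polysomes and the smallest p came from genes of RNA-binding proteins. The circle of mbl, the splicing regulator muscleblind, is a single exon of 654 bases on the right arm of chromosome 2. It had 10, 7 and 29 reads in polysomes and 125, 175 and 107 in total RNA. Every polysome library was below every library of total RNA, although polysome replicate 3 stood well above the other 2 (14.03 ± 11.3 against 43.9 ± 6.42 per 1000, SD, n = 3 each). The log2 change was -1.83 ± 0.42 (SE, edgeR adjusted p = 0.0938), and mbl went from rank 2 in total RNA to rank 14 in polysomes. With 1 library left out the log2 change ranged from -2.80 (without polysome replicate 3) to -1.40 (without polysome replicate 2). It passed the threshold in 10 of the 16 alternatives that kept circular reads as library size, and also with the sum of linear reads as library size, where 50 circRNAs were called. Dbp80, a DEAD box helicase of mRNA export, had 16, 29 and 13 reads in polysomes and 94, 109 and 115 in total RNA. Its parts of 15.7, 22.5 and 12.04 per 1000 in polysomes lay below the 35.1, 30.2 and 39.2 of total RNA. The log2 change was -1.21 ± 0.26 (SE, edgeR adjusted p = 0.0938), from rank 4 to rank 10, and the threshold was passed in 7 of those 16 alternatives and with the sum of linear reads as library size.

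The circle of pum, the translational repressor Pumilio, had 0, 0 and 2 reads in polysomes and 15, 13 and 15 in total RNA. From the summed reads, its part in polysomes was 0.127 of that in total RNA (95% interval 0.0149 to 0.486, Clopper-Pearson, counting error only; edgeR adjusted p = 0.15). Both polysome reads came from replicate 3. The list of RNA-binding and translation proteins held 13 circRNAs of 10 hosts, of which 4 had an unadjusted p under 0.05 with a lower part in polysomes (mbl, Dbp80, pum and one of ps) and 1 with a higher part (larp), where all circRNAs tested had 6.37% and 4.9%. Their median log2 change was -0.54 and that of all circRNAs tested -0.10. The list was chosen with earlier results of these data known, so its counts do not test RNA-binding hosts as a group. Summed, they took 6.08%, 6.45% and 6.57% of circular reads in polysomes and 11.4%, 11.1% and 10.6% in total RNA. Of this, mbl and the more abundant circle of Dbp80, singled out after their values were seen, took 2.55%, 2.80% and 3.89% in polysomes and 8.17%, 7.86% and 7.58% in total RNA. The other 11 circRNAs took 3.53%, 3.65% and 2.69% against 3.25%, 3.27% and 3.003%, with overlap. Larp, which binds mRNAs of the translation machinery, went the other way, with parts of 9.68 ± 4.41 per 1000 in polysomes and 4.26 ± 0.337 in total RNA (SD, n = 3 each; log2 change 0.997 ± 0.39 (SE), edgeR adjusted p = 0.357). The splicing factor gene ps had both directions among its circles: the one counted as lower had 1 read in each polysome library and 6, 28 and 7 in total RNA, while another had 6, 7 and 3 reads against 3, 9 and 7.

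**Figure D3:**
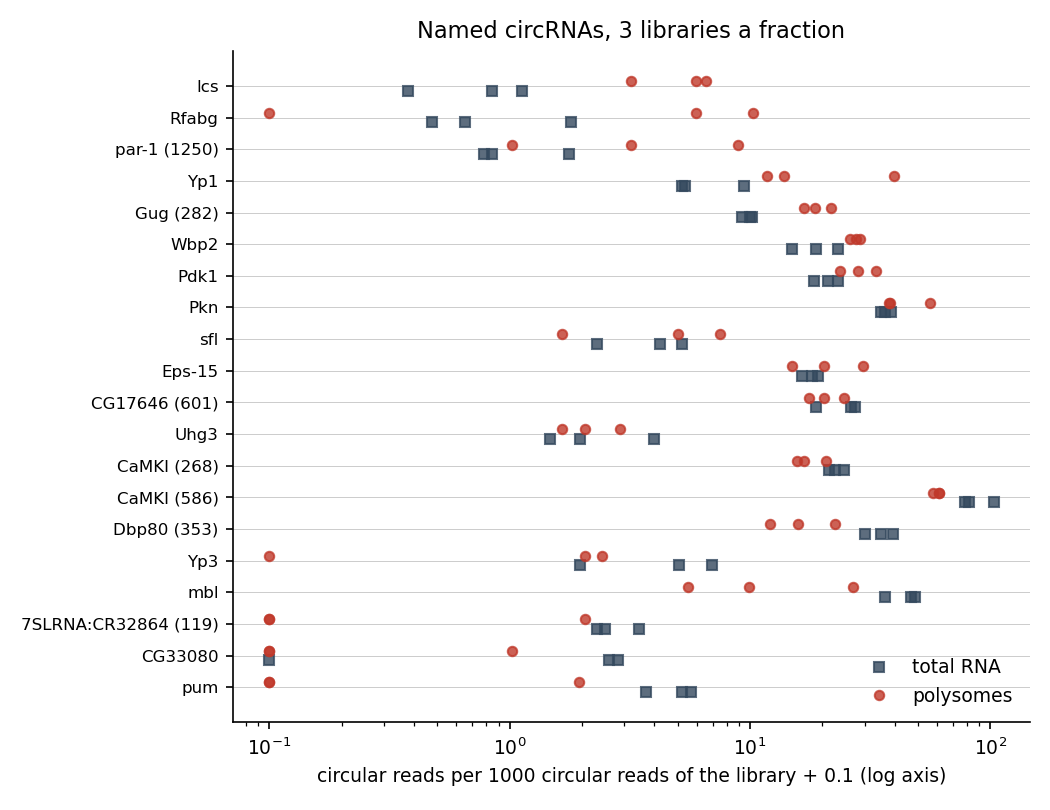
Circular reads per 1000 circular reads of the library (0.1 added, log axis) for each circRNA named by rule, with 3 polysome libraries (circles) and 3 total RNA libraries (squares), ordered by the log2 change; points at 0.1 stand for 0 reads. The libraries of both fractions are apart for Dbp80, mbl and pum, which are lower in polysomes, and for lcs, Yp1 and Gug, which are higher, while those of sfl and Pkn overlap.

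The plot of the named circRNAs by library shows the 3 circles with the smallest p among those with a higher part in polysomes. The circle of Gug, the Atrophin corepressor, had 22, 24 and 18 reads in polysomes and 27, 33 and 29 in total RNA. Its parts were 19.0 ± 2.48 and 9.70 ± 0.501 per 1000 (SD, n = 3 each), with a log2 change of 0.78 ± 0.26 (SE, edgeR adjusted p = 0.203). The circle of lcs had 6, 4 and 7 reads against 2, 1 and 3, and its part of the summed reads was 7.72 times that in total RNA (95% interval 2.90 to 23.9, Clopper-Pearson, counting error only; edgeR adjusted p = 0.0946). Yp1, a yolk protein, had 14, 15 and 43 reads against 25, 19 and 15. Its log2 change was 1.58 ± 0.48 (SE, edgeR adjusted p = 0.182), and it lay between 0.72 and 1.91 with 1 library left out at a time.

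Both ends lay on annotated exon boundaries in 190 circRNAs, with a median log2 change of -0.09 and with 4 higher and 9 lower at an unadjusted p under 0.05. The other 16 circRNAs, of 13 hosts, had 6 higher and 4 lower at that level. Among all circRNAs tested, 4.9% were higher and 6.37% lower. Among all 206, 201 were flanked in the genome by AG before and GT after the circle on the listed strand, the bases of splice sites. The other 5, of EF2, Rfabg, Yp2, Yp1 and lcs, were flanked by AC and CT, which read as AG and GT on the opposite strand, and all 5 had their ends off exon boundaries. Of these 5, 4 had an unadjusted p under 0.05 with a higher part in polysomes (4.9% of all circRNAs tested), and only EF2, the translation elongation factor, had a negative log2 change (-0.82). They took 3.34%, 1.71% and 6.94% of circular reads in polysomes and 1.49%, 0.996% and 1.23% in total RNA. Polysome replicate 3 had the highest of these values.

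By linear reads summed over the 6 libraries, these 5 circles were all among the first 14 of the 206, and 12 of those 14 had ends off exon boundaries. Linear reads at the ends of the Yp1 circle were 7155, 6258 and 5990 in polysomes and 5469, 5889 and 5752 in total RNA. Relative to them, the log2 change of Yp1 was -0.01. No linear count of any circRNA exceeded 7819, and those of Yp2 (7285 to 7507) and Yp3 (6888 to 7676) lay close below it in all libraries. Whether counts of this size follow the amount of linear RNA was not tested, which limits the ratios of the yolk protein circles. Rfabg, the precursor of apolipophorin, had 6, 0 and 11 circular reads in polysomes and 1, 2 and 5 in total RNA. It had the highest log2 change of the ratio, 1.95 ± 0.92 (SE, edgeR adjusted p = 0.308), with overlapping libraries. Yolk proteins are made by the fat body and by follicle cells of the ovary, and all 4 ovary markers looked up (vas, osk, nos and Cp36) were highest in fat body among 4 tissues in the authors' pooled FPKM of total RNA, with a sum of 1252 FPKM against 0.221 to 39.9 elsewhere. Such a table was not used for polysomes, and the part of ovary RNA in these results was not tested. Of 6 fat body markers found, 1 was highest in fat body, Yp1 was listed at 0 there, and Yp2 and Yp3 were at 17472 and 17839 FPKM. The 5 muscle markers summed to 321 FPKM in fat body, 1028 in thorax, 279 in gut and 93.5 in brain. The 1 oenocyte marker found, CG18609, was highest in fat body, at 203 FPKM.

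The 4 circles of 7SL RNA, the RNA of the signal recognition particle, were all lower in polysomes at an unadjusted p under 0.05 (6.37% of all). Summed, they had 6, 0 and 7 reads in polysomes and 58, 50 and 44 in total RNA, or 0.589%, 0% and 0.648% of circular reads against 2.16%, 1.38% and 1.502%. One of them, from 7SLRNA:CR42652, had no read in polysomes and 15 in total RNA, at least 1.84-fold lower when set against 3 reads over the group. Counted at that limit, the median log2 change of the 4 circles was -2.03. The 119 base circle of 7SLRNA:CR32864 had 2, 0 and 0 reads against 9, 8 and 7, a pooled ratio of 0.227 (95% interval 0.0260 to 0.914, Clopper-Pearson). These circles lie within short RNAs with ends off exon boundaries, 2 genes of near-identical sequence hosted them, and reads could be split between the copies. The linear counts of this circle were nearly the same in all libraries (4040, 4042 and 4043 in polysomes against 4024, 4028 and 4028), closer than counting error leaves counts of this size. Those of the 60 base circle of 7SLRNA:CR42652 were close too, between 7549 and 7662. Those of the other 2 circles were below total RNA in every polysome library, with 1601, 1760 and 2275 against 3631, 3643 and 3617 for the second circle of 7SLRNA:CR32864 and 1731, 3828 and 2925 against 5200, 5455 and 5242 for the circle of 7SLRNA:CR42652 without a read in polysomes.

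**Figure D4:**
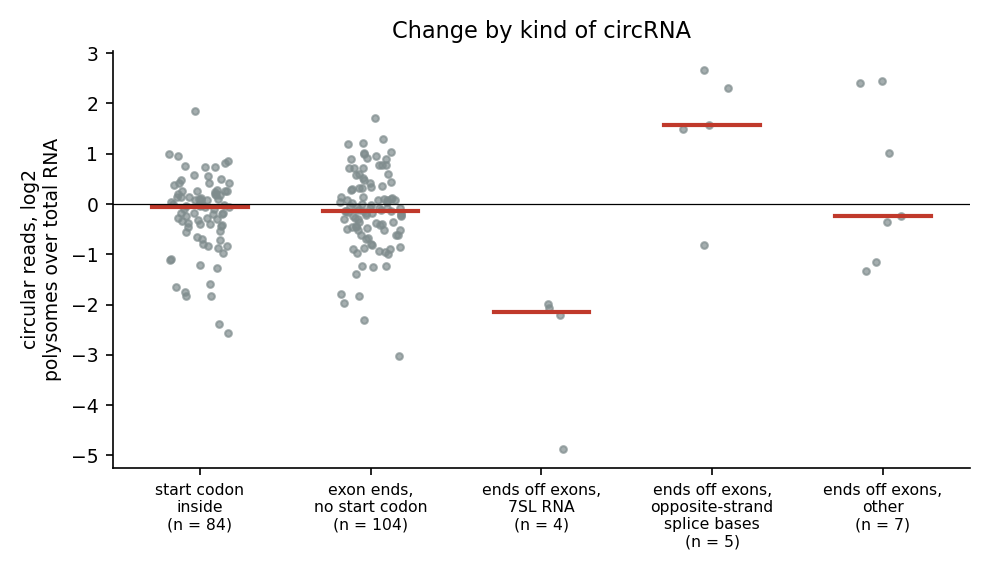
Log2 change of circular reads, polysomes over total RNA with TMM factors, for each circRNA tested, by whether it holds the start codon of its host and whether its ends lie on exon boundaries; bars mark medians and n is the number tested. Circles with a start codon and other exonic circles centre near 0 (medians -0.05 and -0.13), the 7SL circles lie below 0, and 4 of the 5 circles flanked by splice site bases of the opposite strand lie above it; the lowest point has no read in polysomes.

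Circles counted as holding the host's start codon took a smaller part of circular reads in every polysome library than in every total RNA library. This rested on single abundant circles, such as the long circle of CaMKI and that of mbl. The median change of all circles with a start codon was near that of the others. The annotated start codon lay inside 85 circRNAs of 76 hosts, with a median log2 change of -0.05, and outside 121, with a median of -0.13. Of those with a start codon, 1 was higher and 5 lower at an unadjusted p under 0.05, where all circRNAs tested had 4.9% and 6.37%. They took 45.0%, 40.7% and 42.5% of circular reads in polysomes and 47.0%, 50.2% and 47.5% in total RNA, without overlap. The long circle of CaMKI, mbl and the more abundant circle of Dbp80, which are among them, took 8.34%, 8.94% and 10.0% in polysomes and 16.3%, 18.2% and 15.5% in total RNA. These circles were singled out for being lower, so that nothing is read from the rest without them. Apart from its values, the place of the long circle of CaMKI in the group is uncertain. No single annotated transcript held both its ends and the start codon. It took 5.79%, 6.14% and 6.11% of circular reads in polysomes and 8.17%, 10.3% and 7.88% in total RNA. With it counted outside, the fractions would overlap. With mbl left out in its place, they would overlap too. The circle of Pkn was counted outside, since no annotated start codon of its host lay within it. The deposited annotation lists both 5′ untranslated and coding sequence for it. The study gives Pkn, like CaMKI and Pdk1, as an example of circRNAs with the host's start codon. With Pkn and both circles of CaMKI counted inside, the group would take 48.9%, 46.3% and 46.3% in polysomes. In total RNA it would take 50.5%, 53.9% and 51.4%, again without overlap and with the same abundant circles inside.

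The frame from the start codon was followed around each circle. In 30 of the 85 circles, a stop codon came within 30 bases after the junction, as in sfl, where 199 codons precede a stop that ends 4 bases past it. The single exon of mbl was of this kind too, with 65 codons and a stop ending 9 bases past the junction. In 47 circles the stop came later but within 1 round, as in Pdk1 (207 codons) and Dbp80 (105 codons). In 7 circles, of CG18812, CAP, bl, Ect4, Pka-C3, SelR and cindr, the frame met no stop in 3 rounds. The median log2 changes of these 3 kinds were -0.15, -0.02 and -0.00. For the long circle of CaMKI no single annotated transcript held both ends and the start codon.

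Several circles of 1 host did not always move together. Of 29 hosts with 2 or more circRNAs, all tested, 12 had all changes below 0, 4 had all above 0 and 13 had both signs. The 4 circles of uex, a magnesium transporter, ranged from -1.25 to -0.37 on the log2 scale. Its most abundant circle had 12, 7 and 20 reads in polysomes and 83, 56 and 85 in total RNA (edgeR adjusted p = 0.195), and its parts of 5.44 to 18.5 per 1000 overlapped those of 15.5 to 31.0. The 5 circles of CG17646 ranged from -1.97 to 0.43, and the 3 of Gug from -0.62 to 0.95. The 3 circles of dlg1, a scaffold of cell junctions, stayed between -0.08 and 0.42. Over the 188 circRNAs with an exonic length that were tested, the Spearman correlation of length and log2 change was 0.201, a description over circles that share libraries and depth.

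CircRNAs were also grouped by the function of their host. At an unadjusted p under 0.05, 4.9% of all circRNAs tested were higher and 6.37% lower. The 9 circRNAs of insulin and nutrient signalling (8 tested) had a median log2 change of 0.19 and 0 of them had an unadjusted p under 0.05. Among them, foxo, the transcription factor restrained by insulin signalling, had parts of 9.59 ± 3.74 and 5.92 ± 1.001 per 1000 (SD, n = 3 each), and a circle of cnc, the Nrf2 homologue, 6.33 ± 3.38 and 7.51 ± 1.28. The 19 circRNAs of lipid and carbohydrate metabolism had a median of -0.13, with 1 higher (Rfabg) at an unadjusted p under 0.05. LpR2, a lipophorin receptor, had 16.2 ± 6.36 against 18.9 ± 0.231 per 1000 (SD, n = 3 each). The 28 circRNAs of transcription and chromatin regulators (27 tested) had a median of 0.07, with 1 higher (Gug). CrebB stood at 15.3 ± 4.55 and 11.9 ± 1.07 per 1000 and sima, the hypoxia inducible factor, at 13.3 ± 0.569 and 9.47 ± 2.001 (SD, n = 3 each). The 20 circRNAs of the cytoskeleton and cell junctions had a median of 0.11, the 14 of receptors and ion channels -0.37 with 1 lower (uex), and the 3 of phosphodiesterases -0.87. The 85 circRNAs in no list had a median of -0.09.

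Set against linear reads at the same positions, most circles were lower in polysomes. The median log2 change of the circular to linear ratio was -0.57 over 204 circRNAs, and 47 were above 0. In this test, edgeR's quasi-likelihood test with a term per library, 0 were higher (0%) and 0 lower (0%) at an adjusted p under 0.05. At an unadjusted p under 0.05 there were 30 (14.7%), with 1 higher (0.49%) and 29 lower (14.2%). DESeq2 called 0, with 14 at an unadjusted p under 0.05, and the beta-binomial test called 6, all lower, with 34: the 4 circles of 7SL RNA, one of cnc and one of uex. Linear counts of some 7SL circles hardly varied between libraries, as given above, which limits their ratios. Of 205 circRNAs with linear reads in every library, the ratios of polysomes were all above those of total RNA in 1 (0.488%) and all below in 37 (18%). The long circle of CaMKI had 24.7, 23.0 and 8.86 circular per 100 linear reads in polysomes and 27.8, 49.9 and 38.5 in total RNA, all lower (log2 change -1.13 ± 0.56 (SE), edgeR adjusted p = 0.331).

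The 3 lowest ratios named by rule rested on very few reads. CG33080 had 0, 0 and 1 circular reads in polysomes and 0, 9 and 8 in total RNA (pooled ratio 0.160, 95% interval 0.00383 to 1.02, Clopper-Pearson; edgeR adjusted p = 0.106). Yp3, with linear counts of 6888 to 7676 close below the highest of all, had 2, 3 and 0 against 5, 18 and 20 (edgeR adjusted p = 0.106). The third was the 119 base circle of 7SLRNA:CR32864 described above (edgeR adjusted p = 0.106). Among those with higher ratios were Rfabg, par-1 (log2 change 1.34 ± 0.82 (SE)) and Uhg3, a host of small nucleolar RNAs (1.66 ± 1.04 (SE)). The linear reads of Uhg3 were low in polysomes, with 1, 4 and 2 reads against 25, 26 and 18, while its circular reads were 2, 2 and 3 against 5, 14 and 4.

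**Figure D5:**
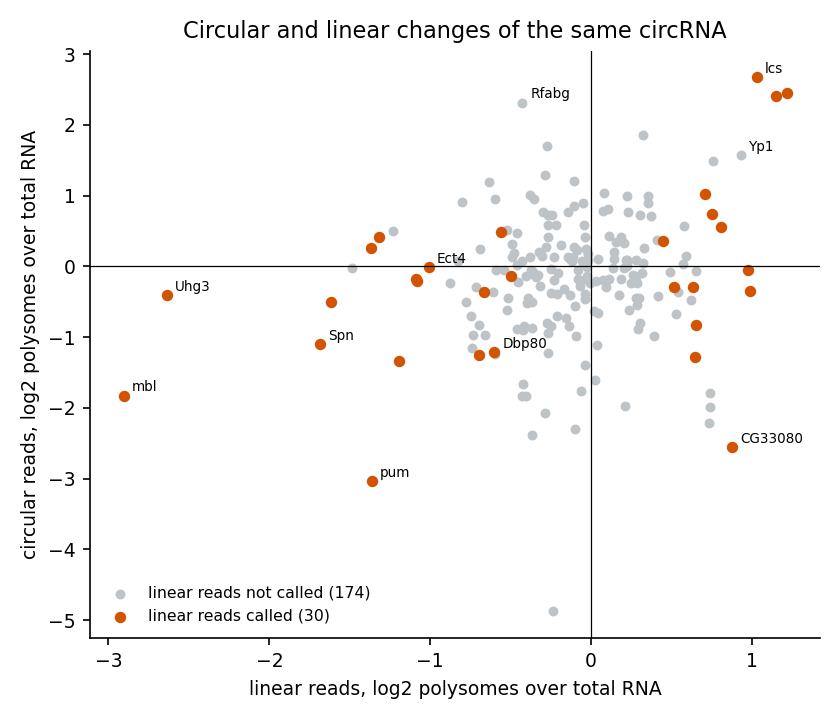
Log2 change of linear reads (x axis) and of circular reads (y axis), polysomes over total RNA with TMM factors within each kind of read, for the 204 circRNAs tested for both; orange points had linear reads past an adjusted p of 0.05. Both reads of mbl and pum lie well below 0, the linear reads of Uhg3 lie below 0 with circular reads nearer to it, and the points as a whole show little relation (Spearman correlation 0.157).

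The linear side gave the changes that passed the test. By edgeR's quasi-likelihood test on linear reads with TMM factors, 16 of 206 were higher (7.77%) and 16 lower (7.77%) in polysomes, and 57 (27.7%) had an unadjusted p under 0.05. The split depended on the scaling: without TMM factors 2 were higher and 40 lower, and the median log2 change was -0.52 in place of -0.11. Without total replicate 1, 5 calls were made. In the plot of circular against linear changes the Spearman correlation was 0.157 over the 204 circRNAs tested for both, which share their libraries.

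Linear reads of mbl fell most, from 51, 74 and 48 in total RNA to 4, 3 and 8 in polysomes (log2 change -2.91 ± 0.36 (SE), edgeR adjusted p = 9.31e-08). Against them the circle of mbl was not lower: it had 250, 233 and 362 circular reads per 100 linear reads in polysomes and 245, 236 and 223 in total RNA, with overlap (log2 change of the ratio 0.31 ± 0.61 (SE)). Uhg3 was the other host whose call held under all 13 alternatives (log2 change -2.64 ± 0.43 (SE), edgeR adjusted p = 2.31e-05). Linear reads of pum, Spn, Parp, Sox102F, cta, Nipped-B, pan, Magi, Ect4, uex, rl, Dbp80, foxo and Hsc70Cb were also called lower. For Ect4, an NAD hydrolase, they were 38, 35 and 38 against 137, 104 and 111 (log2 change -1.01 ± 0.19 (SE), edgeR adjusted p = 0.00013), while its circle had a log2 change of -0.00. Those of Dbp80 were 26, 28 and 43 against 84, 66 and 77 (log2 change -0.60, edgeR adjusted p = 0.0349), a call lost in 7 of the 13 alternatives.

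Among the circRNAs with linear reads called higher were those of CG32521 (106, 124 and 159 in polysomes, 97, 106 and 103 in total RNA), CG11739 (168, 187 and 264 against 156, 175 and 158), CG33080, Nc73EF, CG18812, SelR, CG5946, lcs, LpR2, Piezo, CrzR, and 2 circRNAs each of CG34166 and cnc. The linear reads of CG32521 had a log2 change of 0.99 ± 0.16 (SE), and its circle -0.34. CircRNAs of 1 host that share an end share linear reads there, so that the 2 calls of CG34166, which start at the same base, are not separate evidence. The 2 called circles of cnc share no end, although they come from 1 host.

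The mutant served only to see whether wDah stood apart. In 1 fit over the 12 libraries of both genotypes, edgeR's test of the difference in the polysome change called 0 of 206 circRNAs for circular reads, with 11 at an unadjusted p under 0.05, and 0 for the ratio, with 23. DESeq2 called 0 in each, with 9 and 16. The median difference in log2 change, dilp2-3,5 minus wDah, was 0.13 for circular reads and -0.91 for the ratio. A difference shared by the circRNAs as a set was not tested. The smallest adjusted p belonged to Dbp80 (0.0627), whose circle took 27.8 ± 5.95 per 1000 in polysomes and 23.9 ± 5.02 in total RNA of dilp2-3,5 (SD, n = 3 each), where wDah had 16.8 ± 5.33 and 34.8 ± 4.55. The circle of sfl took 18.3 ± 7.95 and 16.6 ± 0.572 per 1000 in dilp2-3,5, and the difference between genotypes in its polysome change was 0.01 on the log2 scale (edgeR adjusted p = 0.997).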

How the data were processed

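The authors mapped 100 base single-end reads to BDGP6 with STAR 2.5.2b and counted circular and linear reads with DCC. The deposited polysome tables hold these counts, not normalized, and every circRNA in them had at least 5 circular reads in 3 or more of the 12 libraries of both genotypes. The authors' FPKM, pooled over replicates, were read for marker genes in total RNA only. The circRNAs of the tables held 89.9% to 94.1% of the circular reads in the authors' totals per library, which were used as an alternative library size. Columns with the authors' test results were not used. Linear counts crowded below a highest value of 7819, hence an alternative that left out larger counts than 7000.

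Libraries were grouped by their labels. Circular reads, linear reads and their ratio were tested with edgeR 4.0.16 (R 4.3.3) for circRNAs with at least 10 reads of each kind tested over the 6 libraries, with Benjamini-Hochberg adjustment over all of them and a threshold of 0.05. The fits were tested on simulated data. DESeq2 1.42.0, a beta-binomial test and exact permutation tests (scipy 1.17.1) were used beside them. Flanking bases, start codons and reading frames came from the Release 6 genome with Ensembl 115 annotation, whose build is that of the files. P-values measure the spread between these libraries.

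Named one by one were the 3 circRNAs per direction with the smallest p in the fits of circular reads and of the ratio, since none passed the threshold there, the 8 most abundant in polysomes, and those of sfl, CaMKI, Pkn and Pdk1. Others were named from counts after their values were seen. One circRNA counted among the linear calls is not reported here by name. The circRNAs, lists and tests were chosen with earlier results of these data known. Alternatives changed the normalization, tool, minimum, samples, replicate block and linear ceiling of 7000, or left out 1 library. The authors' totals and the restriction to exon boundaries were chosen after seeing the data.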

Additional observations from a re-analysis of the deposited data

How the results depend on the processing

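The count of circRNAs past the threshold by circular reads, 0 in the fit reported, was 0 with RLE factors and with the beta-binomial test, 1 with DESeq2, 4 without TMM factors, 3 with the authors' totals as library size, 2 without a minimum, 2 with a minimum of 30 reads, 2 for ends on exon boundaries, 9 with 12 libraries in 1 fit, and 0 to 6 with 1 library left out (6 without polysome replicate 2). With the sum of linear reads as library size, 50 were called, all lower, since the lower level of circular reads in polysomes then enters each value. For the ratio, 6 were called by the beta-binomial test and 0 to 2 with 1 library left out. Of linear reads, 14 were called by DESeq2 in place of 32, and 5 to 38 with 1 library left out. The difference in circular per 100 linear reads (polysomes minus total RNA, -2.10) ranged from -2.35 to -1.75 with 1 library left out, each with an exact permutation p of 0.2, the smallest for 2 against 3 libraries. Changes of sign in circular reads mostly touched circles near 0, but also those of Gug (0.78 in the fit reported) and Uhg3 (-0.41). With the sum of linear reads as library size, log2 changes became -0.25 for Gug, -0.94 for Pkn, -0.79 for Pdk1, -0.73 for Wbp2, -0.95 for Eps-15 and -0.96 for sfl. With 12 libraries in 1 fit they were -0.0046 for Pkn, -0.020 for Eps-15 and -0.019 for sfl. With 1 library left out they ranged from -0.73 to 0.23 for Uhg3, from -0.12 to 0.24 for Pkn, from -0.13 to 0.21 for Eps-15 and from -0.52 to 0.56 for sfl. The cause of the shifts with 12 libraries or with 1 left out was not tested. The depth of 1019 to 3614 circular reads per library limits all values of single circles.

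Replicate numbers are shared by the groups, but no label says that they mark shared flies. Deviations of same-numbered libraries correlated at -0.09, 0.17 and -0.13 for circular reads. With so few libraries and reads, these values cannot decide whether the samples were paired. The libraries were treated as unpaired. With the replicate block, 6 circRNAs were called by circular reads (1 higher and 5 lower), 0 by the ratio and 31 by linear reads.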
